A study of Mus musculus with 8 samples.

Results

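The cytosolic nucleic acid sensors are proteins that detect DNA or RNA inside the cell, taken here with the adaptors and enzymes that work beside them. They were chosen by name: Ddx58, Ifih1, Dhx58, Mavs, Tbk1, Zbp1, Trex1 and Aim2, with cGAS, held in the count table as Mb21d1, and STING, held as Tmem173. All 10 were found among the 54532 genes of the table. Of these, 9 had counts and were tested, and Trex1 was at 0 in every tumor.

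The tumors grew from 4T1-FLuc cells, a luciferase-expressing mouse mammary carcinoma line, under the skin of female BALB/cJ mice that were 6 weeks old at injection. The control group of 4 mice received saline by the sample titles, while the treatment field of the same samples names PBS. The other 4 mice received mAb-DXd/IMQ, an antibody to CD276 that carries DXd, an inhibitor of topoisomerase I, and IMQ, an agonist of TLR7 and TLR8. Each of 5 intravenous courses, spaced 4 days apart, brought 16 mg/kg, and bulk RNA was sequenced from tumors taken at the endpoint. Both groups rest on 1 cell line, and each sample mixes tumor cells with the host cells around them. Total counts ran from 34591912 to 69582375 per tumor, and the treated minus saline difference of means was -11252594 counts (two-sided exact permutation test, p = 0.171, with 0.0286 the smallest p that 4 against 4 allows). Without saline replicate 4, the deepest sample, the difference was -6424226 counts.

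As background, cells carry separate alarms for misplaced RNA and DNA. RIG-I (Ddx58) and MDA5 (Ifih1) bind viral or misplaced self RNA and signal through Mavs on mitochondria. cGAS binds DNA and makes a cyclic dinucleotide that STING senses. Both routes meet at the kinase Tbk1, which activates interferon regulatory factors and so the type I interferon genes. Many of the sensors are themselves interferon-stimulated, so their RNA level is often high where interferon acts. In tumors, DNA damage is a known source of cytosolic DNA for this pathway.

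Across the 8 tumors, 5 sensors had higher values in every mAb-DXd/IMQ tumor than in any saline tumor: Ddx58, Ifih1, Dhx58, Mb21d1 and Aim2. This count used CPM, counts scaled to library size and by TMM factors. On that scale 5.97% of the 18511 tested genes lay higher without overlap of the groups and 7.10% lay lower, while no sensor lay lower. As TPM, transcript levels per gene length and library, 0 of the 9 sensors separated the groups, beside 5.27% of all tested genes that lay higher without overlap. With edgeR, 0 of the 9 tested sensors passed an FDR of 0.05 with an absolute log2 fold change above 0.58, beside 1.06% of all tested genes. At an unadjusted p under 0.05 the count was 5 of 9, beside 18.9% of all tested genes. DESeq2 passed 2, Ddx58 and Aim2, beside 4.25% of all tested genes. The newer quasi-likelihood method of edgeR (legacy=FALSE) passed 1, Aim2, beside 1.57%, and limma-voom passed 0, beside 0.940%. The median log2 fold change was 0.44 over the 9 sensors and 0.02 over all tested genes, and 7 sensors were above 0 and 2 below.

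**Figure D1:**
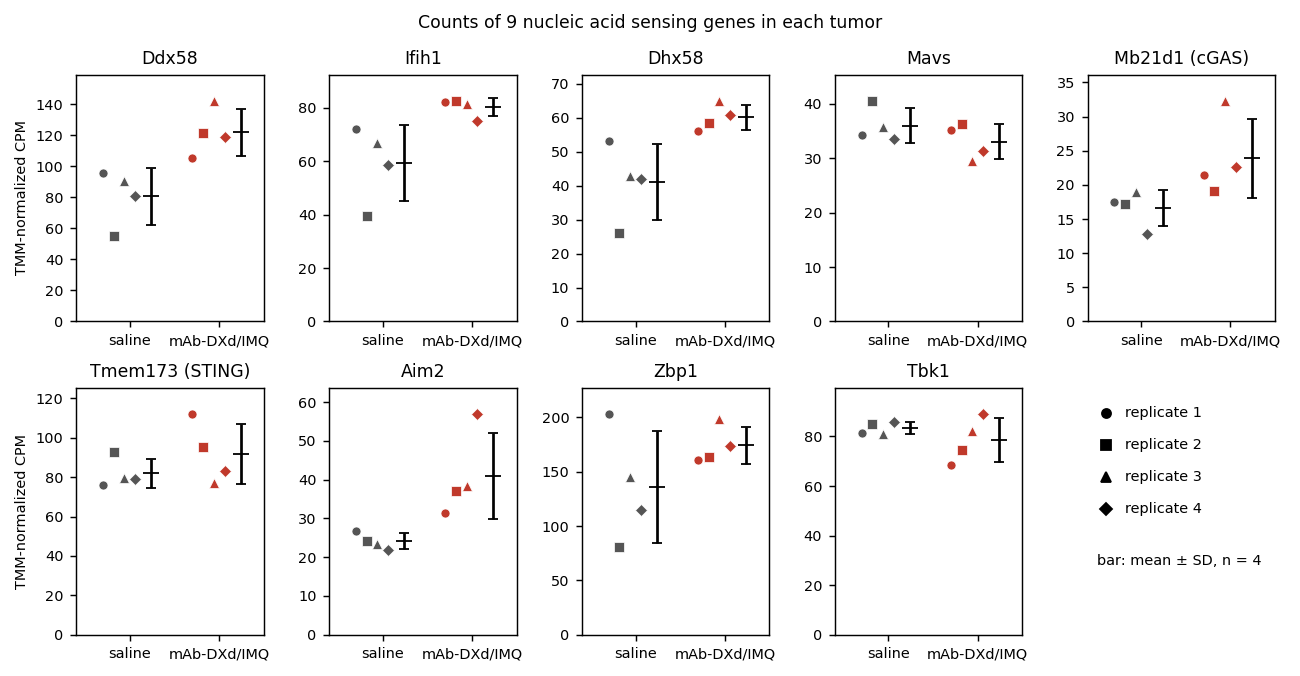
TMM-normalized CPM of the 9 sensors with counts in each tumor, by group, with symbols for the replicate and a bar for mean ± SD (n = 4). Every mAb-DXd/IMQ tumor lies above every saline tumor for Ddx58, Ifih1, Dhx58, Mb21d1 and Aim2, on this scale and not as TPM.

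Of all tested genes, 197 passed both thresholds, 101 higher and 96 lower in mAb-DXd/IMQ tumors. With upper-quartile factors in place of TMM the split was 145 higher (66.5%) and 73 lower, against 51.3% higher with TMM. With library size alone it was 60.8% higher and with a gene length correction 61.7%. This total leaned on single tumors: it was 10 without saline replicate 3, 11 without saline replicate 4 and 12 without mAb-DXd/IMQ replicate 4. It was 111 without saline replicate 2, 76 without mAb-DXd/IMQ replicate 2 and 88 without mAb-DXd/IMQ replicate 3.

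Saline replicates 1 and 2 lay at opposite ends of the saline group for interferon-stimulated genes and macrophage markers. In saline replicate 2 the 20 interferon-stimulated reference genes summed to 1142 TPM, against 1897 to 3965 TPM in the other saline tumors. There the 9 macrophage and monocyte markers, of which Lyz2 was the most abundant, summed to 11295 TPM, against 2168 to 6202 TPM. Saline replicate 1 had the highest sum of the interferon-stimulated genes and the lowest of the macrophage markers, and also the highest sums of neutrophil markers (942 TPM) and skeletal muscle markers (616 TPM). For the sensors, and for other named genes that saline replicate 2 moves by over 1.5 times, fold changes are given with and without it. Without saline replicate 1, log2 fold changes were 0.69 for Ddx58, 0.54 for Ifih1, 0.70 for Dhx58 and 0.62 for Zbp1, and 0.82 for Aim2, 0.54 for Mb21d1, 0.13 for Tmem173, -0.15 for Mavs and -0.10 for Tbk1. None of these passed edgeR. In bulk samples, fewer cells of a type and less RNA per cell cannot be told apart.

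Among the RNA sensors, Ddx58 encodes RIG-I, a helicase that recognizes the ends of short double-stranded RNA. Its normalized values were 96.0, 55.1, 90.9 and 80.8 CPM in saline replicates 1 to 4, and 106, 121, 142 and 119 CPM in mAb-DXd/IMQ replicates 1 to 4. The groups did not overlap, saline replicate 2 was the lowest tumor, and mAb-DXd/IMQ replicate 3 was the highest. The means were 80.7 ± 18.2 CPM (SD, n = 4) and 122 ± 15.1 CPM (SD, n = 4). This gave a log2 fold change of 0.60 (SE 0.17, 95% interval 0.23 to 0.96, adjusted p = 0.0947 by edgeR), higher in 4 of 4 treated tumors. Without saline replicate 2 it was 0.45 (adjusted p = 0.142), within a range of adjusted p from 0.0259 to 0.226 over its 20 alternatives. The gene (ENSMUSG00000040296) lies on the minus strand of GRCm38 at chr4:40203773-40239828.

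Ifih1 encodes MDA5, which binds long double-stranded RNA. It measured 72.0, 39.6, 66.7 and 58.7 CPM in the saline tumors and 82.0, 82.5, 81.5 and 75.2 CPM in the treated tumors. The treated tumors lay close together, above a wide saline group. Means were 59.3 ± 14.2 CPM and 80.3 ± 3.45 CPM (SD, n = 4 each), a log2 fold change of 0.44 (SE 0.16, adjusted p = 0.18 by edgeR) with 4 of 4 treated tumors higher. Leaving out saline replicate 2 gave 0.29 (adjusted p = 0.269), out of a range of adjusted p from 0.121 to 0.341 over 20 alternatives. Ifih1 (ENSMUSG00000026896) lies at chr2:62595798-62646255, minus strand.

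Dhx58 encodes LGP2, a relative of RIG-I and MDA5 that lacks their signaling domains and modulates both. Its values were 53.2, 26.1, 43.0 and 42.1 CPM in saline tumors and 56.1, 58.6, 64.9 and 60.8 CPM in treated tumors. The gap between the groups was narrow, since saline replicate 1 came near the lowest treated tumor. Its log2 fold change was 0.55 (SE 0.18, adjusted p = 0.136 by edgeR), with means of 41.1 ± 11.2 and 60.1 ± 3.73 CPM (SD, n = 4 each) and 4 of 4 treated tumors higher. It was 0.38 without saline replicate 2 (adjusted p = 0.175, range 0.0690 to 0.274 over 20 alternatives). With scaling by library size alone, Dhx58 no longer separated the groups. Dhx58 (ENSMUSG00000017830) lies at chr11:100694884-100704271, minus strand.

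Mavs, the mitochondrial adaptor below RIG-I and MDA5, measured 34.3, 40.5, 35.6 and 33.4 CPM in saline tumors and 35.2, 36.3, 29.5 and 31.3 CPM in treated tumors. These groups overlapped, and here saline replicate 2 was the highest of all tumors. The log2 fold change was -0.12 (SE 0.11, 95% interval -0.37 to 0.12, adjusted p = 0.598 by edgeR), with 2 of 4 treated tumors below every saline tumor. It was -0.06 without saline replicate 2 and -0.07 without mAb-DXd/IMQ replicate 3. The difference between the receptors and this adaptor was not tested. Mavs (ENSMUSG00000037523) lies at chr2:131234063-131248025, plus strand.

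The stretches around the sensors' starts were searched for letters that interferon-activated factors are known to bind. The motifs were GAAANNGAA, core letters of the interferon-stimulated response element, and TTCNNNGAA, those of the gamma-activated site, each on both strands. Windows ran from 250 bases before to 50 bases after each start, taken from RefSeq on build GRCm38.p6, and 7 of the 10 genes had one in the search. No window was held for Dhx58, Zbp1 or Sting1. Of 32851 windows in all, 8.56% held GAAANNGAA and 8.3% held TTCNNNGAA. Ddx58 had 1 match to GAAANNGAA and Ifih1 had 2. The windows of Mavs, Cgas, Aim2, Tbk1 and Trex1 (2 windows) held neither set of letters, and TTCNNNGAA was in none of the sensor windows searched.

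The windows of Ddx58 and Ifih1 are shown for their matches. Beside them are those of Aim2, with the largest fold change among the sensors over all 8 tumors, and of Mavs, the adaptor. All read 5′ to 3′ along the gene, with capitals for matches to GAAANNGAA on either strand. Ddx58 is from chr4:40239776-40240075, minus strand, with its match on the opposite strand of the gene at 4 to 12 bases after the start. Ifih1 is from chr2:62646206-62646505, minus strand, with 1 match on the opposite strand at -112 to -104 and 1 on the gene's own strand at 33 to 41. Aim2 is from chr1:173420354-173420653, plus strand, and Mavs from chr2:131233813-131234112, plus strand. A match describes letters only.
Ddx58: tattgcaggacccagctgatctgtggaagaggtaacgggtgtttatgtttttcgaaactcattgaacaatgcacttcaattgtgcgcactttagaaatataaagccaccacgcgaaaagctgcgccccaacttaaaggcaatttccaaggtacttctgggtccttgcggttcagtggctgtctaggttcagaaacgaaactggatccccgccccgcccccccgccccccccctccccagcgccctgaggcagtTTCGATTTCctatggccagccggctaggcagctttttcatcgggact
Ifih1: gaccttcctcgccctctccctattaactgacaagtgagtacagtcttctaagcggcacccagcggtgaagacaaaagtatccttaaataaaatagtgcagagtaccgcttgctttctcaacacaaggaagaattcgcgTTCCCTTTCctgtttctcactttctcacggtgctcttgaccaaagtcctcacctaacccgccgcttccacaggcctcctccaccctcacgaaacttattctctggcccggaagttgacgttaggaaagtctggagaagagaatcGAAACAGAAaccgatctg
Aim2: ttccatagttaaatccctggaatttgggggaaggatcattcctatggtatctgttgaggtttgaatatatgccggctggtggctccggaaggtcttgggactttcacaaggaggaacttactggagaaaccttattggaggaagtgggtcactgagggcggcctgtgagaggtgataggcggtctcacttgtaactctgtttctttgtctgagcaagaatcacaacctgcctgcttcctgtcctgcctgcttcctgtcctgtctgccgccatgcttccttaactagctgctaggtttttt
Mavs: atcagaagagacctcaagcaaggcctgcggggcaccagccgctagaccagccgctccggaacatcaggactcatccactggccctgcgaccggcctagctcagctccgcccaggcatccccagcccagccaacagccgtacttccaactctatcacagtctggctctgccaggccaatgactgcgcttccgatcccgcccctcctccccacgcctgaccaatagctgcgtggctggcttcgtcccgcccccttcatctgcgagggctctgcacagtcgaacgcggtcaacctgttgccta

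Of 16 tested cofactors and regulators of RIG-I-like receptors, 0 passed edgeR in either direction, and 0 passed with legacy=FALSE, DESeq2 or limma-voom. At an unadjusted p under 0.05 were 3 of the 16, near the 18.9% of all tested genes, which is the background of every such list count given here. Their median log2 fold change was -0.01, with 8 above 0 and 8 below. The largest differences belonged to Zcchc3, a co-sensor for RIG-I and MDA5 (log2 fold change 0.39), Ddx60, a helicase of antiviral defense (0.33), and Traf6, an adaptor ligase (-0.27). Ddx60 moved to 0.14 without saline replicate 2 and to 0.58 without saline replicate 1. No list was tested as a whole.

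Among the DNA sensors, Aim2, which binds DNA and assembles an inflammasome, had the largest fold change. Its values were 26.8, 24.2, 23.4 and 21.9 CPM in saline tumors and 31.5, 37.2, 38.3 and 56.9 CPM in treated ones. Saline values lay close together and all below the treated tumors, with mAb-DXd/IMQ replicate 4 far above the rest. Means were 24.1 ± 2.04 CPM and 40.9 ± 11 CPM (SD, n = 4 each). The log2 fold change was 0.76 (SE 0.17, 95% interval 0.39 to 1.14, adjusted p = 0.0536 by edgeR), higher in 4 of 4 treated tumors. Aim2 passed with DESeq2, with legacy=FALSE, with no filter on low counts, and without mAb-DXd/IMQ replicate 1, where its log2 fold change was 0.87. It was 0.57 without mAb-DXd/IMQ replicate 4, where Ddx58 had the largest log2 fold change of the sensors, 0.61. The adjusted p of Aim2 ran from 0.00331 to 0.173 over 20 alternatives. Aim2 was not low in saline replicate 2, where it was 101% of the mean of the other saline tumors, and its log2 fold change without that tumor was again 0.76. The table places Aim2 (ENSMUSG00000037860) at chr1:173350879-173466040, plus strand, and the RefSeq start lies inside that span.

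Mb21d1 encodes cGAS, the enzyme that turns cytosolic DNA into the messenger cGAMP. It measured 17.5, 17.2, 19.0 and 12.9 CPM in saline tumors and 21.5, 19.2, 32.3 and 22.6 CPM in treated tumors. The groups came close at saline replicate 3 and mAb-DXd/IMQ replicate 2, and mAb-DXd/IMQ replicate 3 stood highest. For cGAS the log2 fold change was 0.52 (SE 0.18, adjusted p = 0.162 by edgeR), from means of 16.6 ± 2.63 and 23.9 ± 5.78 CPM (SD, n = 4 each), with 4 of 4 treated tumors higher. Without mAb-DXd/IMQ replicate 3 it was 0.34, without saline replicate 2 it was 0.54, and the adjusted p ran from 0.0923 to 0.359 over 20 alternatives. Mb21d1 (ENSMUSG00000032344) lies at chr9:78430526-78443237, minus strand.

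Tmem173 encodes STING, the membrane receptor for cGAMP. Its values were 76.2, 92.9, 79.6 and 79.3 CPM in saline tumors and 112, 95.2, 77.1 and 83.0 CPM in treated tumors. The groups overlapped, and the highest value came from mAb-DXd/IMQ replicate 1. The log2 fold change was 0.16 (SE 0.13, 95% interval -0.12 to 0.45, adjusted p = 0.534 by edgeR), with 0.05 without mAb-DXd/IMQ replicate 1 and 0.23 without saline replicate 2. Its identifier is ENSMUSG00000024349. For this gene the table gives a length of 2302 bases where the GENCODE exons cover 2741, which enters its TPM and the gene length correction, under which its log2 fold change was 0.10.

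Zbp1 binds Z-form nucleic acid and can set off inflammatory cell death. It measured 203, 81.0, 145 and 114 CPM in saline tumors and 161, 163, 198 and 174 CPM in treated tumors. All treated tumors fell inside the saline range, whose ends were saline replicates 1 and 2. For Zbp1 the log2 fold change was 0.36 (SE 0.23, 95% interval -0.14 to 0.86, adjusted p = 0.429 by edgeR). It moved to 0.18 without saline replicate 2 (adjusted p = 0.693) and to 0.62 without saline replicate 1, with adjusted p from 0.116 to 0.693 over 20 alternatives. Zbp1 (ENSMUSG00000027514) lies at chr2:173206612-173218923, minus strand.

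Tbk1, the kinase shared by the RNA and DNA routes, was the steadiest sensor gene among all saline tumors, but not without saline replicate 2. It measured 81.5, 85.0, 81.2 and 85.9 CPM there and 68.3, 74.5, 82.1 and 89.0 CPM in treated tumors. The treated tumors lay on both sides of the saline group. The log2 fold change was -0.087 (SE 0.10, 95% interval -0.32 to 0.14, adjusted p = 0.70 by edgeR). It was -0.081 without saline replicate 2, -0.029 without mAb-DXd/IMQ replicate 1 and -0.15 without mAb-DXd/IMQ replicate 4. Tbk1 (ENSMUSG00000020115) lies at chr10:121546455-121586787, minus strand.

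**Figure D2:**
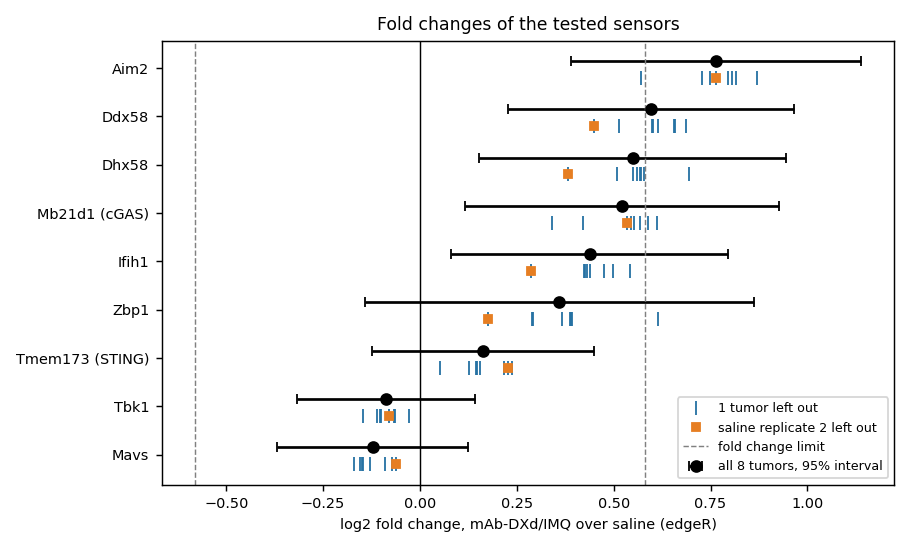
Log2 fold change of each tested sensor from edgeR (mAb-DXd/IMQ over saline), with its 95% interval over all 8 tumors as black points and bars, and with 1 tumor left out as blue ticks. Without saline replicate 2 (orange squares) Ddx58, Ifih1, Dhx58 and Zbp1 moved toward 0, and Aim2 stayed at 0.76.

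Trex1, the exonuclease that degrades cytosolic DNA, had a count of 0 in all 8 tumors. A count of 0 allows up to 3 counts, or 0.0431 to 0.0867 CPM of each tumor's raw total, without TMM factors and for counting error only. All 1147 exon bases of Trex1 (ENSMUSG00000049734, chr9:109057933-109059734) lie inside exons of Atrip on the same strand. Atrip, which encodes a partner of the ATR kinase, had 825, 846, 902 and 1129 counts in saline tumors and 861, 890, 1026 and 676 counts in treated tumors. Of 133 protein-coding genes whose exon bases all lie in exons of another gene on the same strand, 133 were at 0 in every tumor. With the other gene on the opposite strand it was 37 of 38 (97.4%), while 22.6% of the 15489 genes that share no exon base were at 0. The 0 for Trex1 is therefore not a measure of its RNA. Antisense genes covered 4.31% of the exon bases of Dhx58 and 4.87% of those of Mb21d1, and 0 of those of the other members.

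Levels can be set side by side between genes only per length, as TPM. In saline tumors Zbp1 had the highest level, 110 ± 44.6 TPM, and Tmem173 the next, 101 ± 7.97 TPM (SD, n = 4 each). These levels did not differ beyond their spread, since Zbp1 was above Tmem173 in 2 of 4 saline tumors and 3 of 4 treated tumors. Tbk1 followed at 60.7 ± 1.52 TPM. Then came Dhx58 at 35.9 ± 10.5, Ddx58 at 32.7 ± 7.84 and Mavs at 30.6 ± 2.44 TPM, with means within the spread over tumors. Within tumors, Dhx58 stood above Ddx58 in 4 of 4 saline tumors and Ddx58 above Mavs in 3 of 4. The levels of Ifih1, 20.7 ± 5.28 TPM, and Aim2, 19.6 ± 2.10 TPM, were not apart either, and Mb21d1 was lowest at 11.5 ± 1.87 TPM. The RNA of Mb21d1 (cGAS) thus stood well under that of Tmem173 (STING) in every tumor, with the table's length of 2302 bases for Tmem173.

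In treated tumors the TPM order was Zbp1 (140 ± 26.9), Tmem173 (111 ± 9.75), Tbk1 (56.7 ± 10.2), Dhx58 (51.9 ± 8.14) and Ddx58 (49.1 ± 10.8). Aim2 (33.0 ± 9.50 TPM) stood above Ifih1 in 3 of 4 treated tumors, while Ifih1 stood above Aim2 in 3 of 4 saline tumors. Mavs and Ifih1 both had a mean of 27.7 TPM, and Mb21d1 had 16.5 ± 5.53 TPM. The 5 sensors that separated the groups as normalized CPM overlapped as TPM. For each of them mAb-DXd/IMQ replicate 1 fell below the highest saline tumor, and for Ifih1 mAb-DXd/IMQ replicate 4 did too. For Ddx58 these values were 37.2 TPM and 40.1 TPM, and for Aim2 22.4 TPM and 22.6 TPM. This tumor had the lowest TMM factor, 0.939, and the fewest genes with counts, 22754. Over all tested genes the log2 fold change ran against gene length (Spearman rho -0.21 across genes, which are not independent replicates). The part of length in the sensors' values as TPM was not tested.

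**Figure D3:**
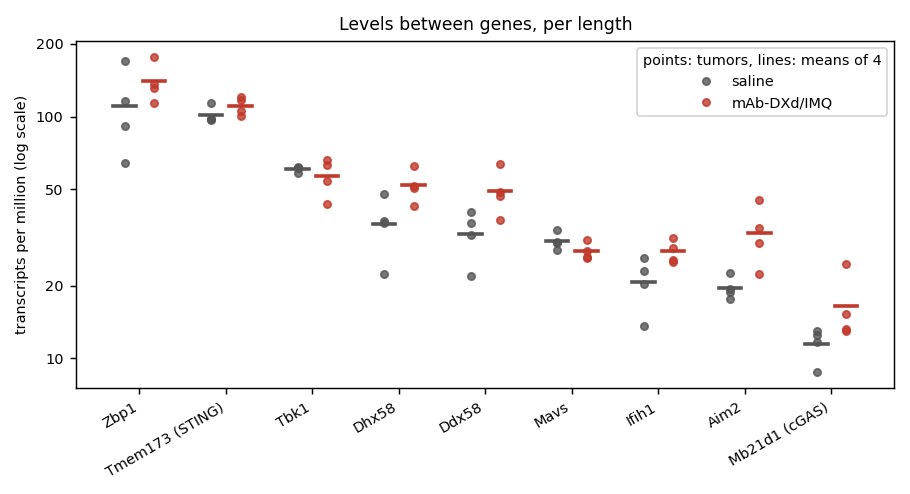
Levels of the 9 sensors with counts in TPM on a log axis, with points for tumors and lines for group means (n = 4 each). Zbp1 and Tmem173 lie highest and Mb21d1 lowest in both groups.

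The spread among mice differed from gene to gene. As normalized CPM, the coefficient of variation of Zbp1 was 38.1% among saline tumors and 9.84% among treated tumors. For Ifih1 it was 24% and 4.30%, for Dhx58 27.3% and 6.21%, and for Ddx58 22.5% and 12.4%. These values moved with single tumors. Without saline replicate 2 the saline values were 10.2% for Ifih1, 13.4% for Dhx58 and 8.68% for Ddx58. Treated values fell to 0.646% for Ifih1 without mAb-DXd/IMQ replicate 4, and to 4.00% for Dhx58, 7.41% for Ddx58 and 4.11% for Zbp1 without mAb-DXd/IMQ replicate 3. For Zbp1 the saline value was 29.1% without replicate 2 and 28.2% without replicate 1. Aim2 had 8.47% among saline and 26.9% among treated tumors, but 5.04% among saline tumors without saline replicate 1 and 10.2% among treated tumors without mAb-DXd/IMQ replicate 4. Mb21d1 had 15.8% and 24.2%, but 8.25% among treated tumors without mAb-DXd/IMQ replicate 3 and 5.29% among saline tumors without saline replicate 4. Tbk1 had 2.89% among saline tumors and 11.4% among treated tumors, where the value was 8.84% to 13.7% with a tumor left out. Among saline tumors without replicate 2, Tmem173 was the steadiest at 2.41%, against 9.05% with it, and Tbk1 had 3.19%. These spreads rest on 4 tumors each and were not tested.

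Saline replicate 2 split the sensors into sets. There, Ddx58 was at 61.8% of the mean of the other saline tumors, Ifih1 at 60.2%, Dhx58 at 56.6% and Zbp1 at 52.6%, all as normalized CPM. Mavs was at 118%, Tmem173 at 119%, Mb21d1 at 105%, Tbk1 at 103% and Aim2 at 101%. So the genes low in that tumor were the 3 RNA receptors and Zbp1, and not the adaptors, the kinase, cGAS or Aim2.

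Correlations of log2 CPM over the 8 tumors, which pool both groups and so hold the group difference, followed those sets in part. Pearson's r was 0.97 for Ddx58 with Dhx58, 0.97 for Ifih1 with Dhx58 and 0.94 for Ddx58 with Ifih1 (n = 8). Without saline replicate 2 these were 0.94, 0.89 and 0.85. Zbp1 had r = 0.93 with Dhx58 and 0.89 with Ddx58, which became 0.79 and 0.70 without that tumor. Without it, Ddx58 was closer to Mb21d1 (0.89) and Aim2 (0.80) than to Zbp1, and Dhx58 closer to Aim2 (0.84) and Mb21d1 (0.80) than to Zbp1. By rank over all 8 tumors, too, Dhx58 was closer to Mb21d1 (Spearman rho 0.93) and Aim2 (0.90) than to Zbp1 (0.76). Mavs ran against Ddx58 (r = -0.78, and -0.53 without saline replicate 2). Tmem173 had r of -0.10 with Ddx58, which became 0.14 without saline replicate 2. With Tbk1 its r was -0.75, or -0.85 without that tumor, but its Spearman rho was -0.40 (n = 8).

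**Figure D4:**
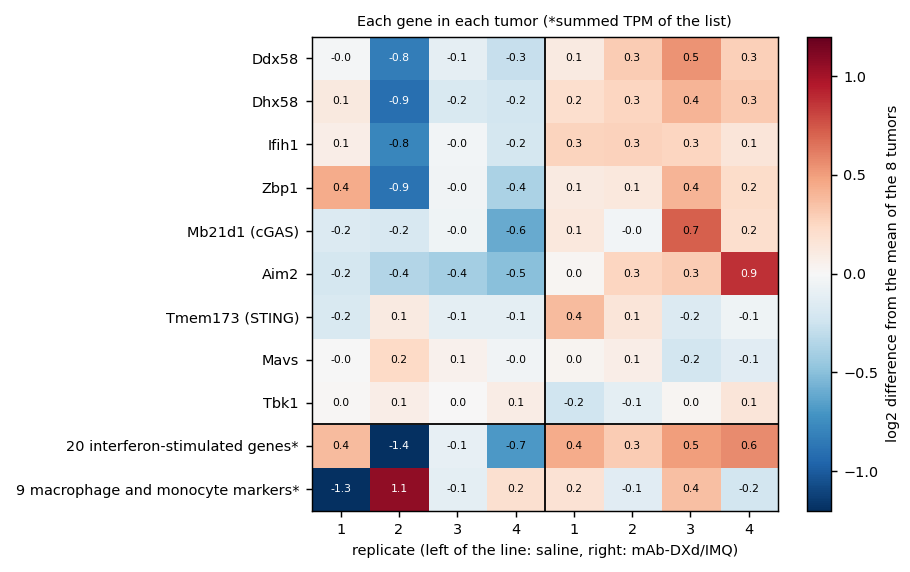
Log2 difference of each gene's normalized CPM from its mean over the 8 tumors, with the summed TPM of 20 interferon-stimulated genes and of 9 macrophage and monocyte markers in the bottom lines. Ddx58, Dhx58, Ifih1, Zbp1 and the interferon-stimulated genes are lowest in saline replicate 2, where the macrophage markers are highest.

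For 3 sensors, the genes most like them over the 8 tumors were sought among the 14645 tested genes with a mean of at least 1 CPM. Nearest to Ddx58 were Oas1g, of the oligoadenylate synthetase family (r = 0.985), Sp100, a nuclear body protein (0.982), and Gpnmb, a glycoprotein of phagocytes and melanocytes (0.982). Nearest to Zbp1 were Tlr3, the endosomal receptor for double-stranded RNA (r = 0.982), Parp12, an ADP-ribosyltransferase (0.981), and Slfn8, a Schlafen family gene (0.981). Nearest to Mb21d1 were Rassf1 (r = 0.976), the long noncoding gene 4933404O12Rik (0.974) and Lrrc75a (0.973). These r values were the highest of many (n = 8) and describe likeness only. None of the 9 passed edgeR, and their log2 fold changes ran from 0.15 for Tlr3 to 1.64 for Gpnmb (SE 0.40, adjusted p = 0.0647, passed in 3 of 20 alternatives). Without saline replicate 2, Tlr3 and Parp12 stood at 0.03 each and Slfn8 at 0.13, from 0.15, 0.18 and 0.27 with it. Without saline replicate 1 they stood at 0.31, 0.33 and 0.43. Oas1g has close relatives in the genome, and how shared reads were counted is not given.

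Around cGAS and STING, 0 of 12 tested cofactors and regulators passed edgeR, 2 had an unadjusted p under 0.05, and 1 passed with DESeq2, against 0 with legacy=FALSE and limma-voom. Their median log2 fold change was 0.16. The largest were Slc19a1, a carrier that imports folates and cyclic dinucleotides (0.63, adjusted p = 0.0798, with groups apart as normalized CPM and overlapping as TPM), and Nlrc3, a negative regulator of STING (-0.49). Nlrc3 moved to -0.25 without mAb-DXd/IMQ replicate 1 and to -0.79 without mAb-DXd/IMQ replicate 3. Next came Lrrc8a, a subunit of volume-regulated channels (0.40). The gene that passed with DESeq2 was Slc19a1.

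In the module of Tbk1, its partners and the interferon regulatory factors, 0 of 9 tested genes passed edgeR, 4 had an unadjusted p under 0.05, and 1, Irf7, passed with DESeq2 and with legacy=FALSE, against 0 with limma-voom. Their median log2 fold change was -0.04. Irf7, the interferon-inducible factor that amplifies type I interferon, measured 173, 55.2, 143 and 119 CPM in saline tumors and 279, 249, 287 and 272 CPM in treated tumors. The treated tumors were all higher and close together. Its log2 fold change was 1.15 (SE 0.27, adjusted p = 0.0591), and 0.90 without saline replicate 2 (adjusted p = 0.0345). Irf7 passed in 5 of 20 alternatives, with adjusted p from 0.00126 to 0.175. The kinase adaptor Tbkbp1 stood at 0.56 and Ikbkg, the NEMO subunit, at -0.36. Ifnb1 was too low to test, at 0.176 ± 0.127 CPM in saline and 0.140 ± 0.0950 CPM in treated tumors (SD, n = 4 each).

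Among nucleases and RNA-handling enzymes that limit self nucleic acid, 0 of 11 tested genes passed edgeR, 3 had an unadjusted p under 0.05, and 0 passed with DESeq2, legacy=FALSE or limma-voom. Their median log2 fold change was 0.05. Dnase1l3, a secreted DNase, measured 6.28, 23.4, 15.6 and 21.8 CPM in saline tumors and 2.99, 4.26, 10.5 and 3.82 CPM in treated tumors. Its groups overlapped, with saline replicate 1 below mAb-DXd/IMQ replicate 3. The log2 fold change was -1.63 (SE 0.46, adjusted p = 0.0935), and -2.19 without mAb-DXd/IMQ replicate 3. Dnase1l3 passed with no filter and without saline replicate 1. Rnaseh2c, a subunit of RNase H2, stood at 0.60, and at 0.80 without mAb-DXd/IMQ replicate 3, where it passed. Pnpt1, a mitochondrial ribonuclease, stood at 0.49 (adjusted p = 0.0550, with groups apart as normalized CPM and as TPM). Trex2 was too low to test.

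The AIM2-like receptors are a mouse family of DNA-binding proteins encoded beside Aim2. Of 16 names sought, 12 were in the table, and Mnda, Pydc3, Pydc4 and Pyhin1 were not matched. With edgeR 0 of the 12 passed, and 4 had an unadjusted p under 0.05, with a median log2 fold change of 0.27. DESeq2 passed 2, Ifi208 and Ifi206, and legacy=FALSE and limma-voom passed 0. Ifi208 measured 2.98, 1.08, 3.30 and 3.13 CPM in saline tumors and 4.29, 7.13, 6.38 and 11.4 CPM in treated tumors. All treated tumors were higher (log2 fold change 1.47, SE 0.38, adjusted p = 0.0746). Ifi206 stood at 1.36 and Ifi214 at 0.63. These genes resemble each other in sequence, and how reads that fit several of them were counted is not given. Ifi204 is also in the list around cGAS and STING.

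In the inflammasome list downstream of Aim2, 1 of 6 tested genes passed, and it was the only one at an unadjusted p under 0.05. The median log2 fold change was -0.14, and the other 5 genes lay between -0.30 and -0.03. The gene that passed was Il1b, the cytokine cleaved by the inflammasome (ENSMUSG00000027398). It measured 135, 110, 151 and 177 CPM in saline tumors and 69.3, 52.2, 76.4 and 52.8 CPM in mAb-DXd/IMQ tumors. Every treated tumor was lower than every saline tumor, and Il1b fell by 1.19 on the log2 scale (SE 0.17, adjusted p = 0.0201 by edgeR). The adjusted p ran from 1.08e-07 to 0.0846 over 20 alternatives, and Il1b passed in 15 of them. Neutrophil and macrophage markers, which include cells known to make this cytokine, are given with the marker lists.

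Of 6 tested cell death partners of Zbp1, 0 passed edgeR, DESeq2 or limma-voom, and 0 had an unadjusted p under 0.05. They had a median log2 fold change of -0.13. Casp6, a caspase, stood at -0.22, Ripk1, a kinase of death receptor signaling, at -0.21, and Mlkl, the pore-forming protein of necroptosis, at 0.19. These leaned on single tumors: Casp6 moved to -0.41 and -0.085 without mAb-DXd/IMQ replicates 1 and 3, Ripk1 to -0.12 without mAb-DXd/IMQ replicate 4, and Mlkl to 0.09 without saline replicate 2 and 0.10 without mAb-DXd/IMQ replicate 1.

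Other sensors of double-stranded RNA gave 1 gene past the thresholds among 11 tested, with a median log2 fold change of -0.05. DESeq2 passed 2, Oas1a and Oas2, and legacy=FALSE and limma-voom passed 1, Oas2. At an unadjusted p under 0.05 were 7 of 11, beside 18.9% of all tested genes. Oas2, a synthetase that makes the activator of RNase L (ENSMUSG00000032690), measured 81.8, 28.1, 92.5 and 78.3 CPM in saline tumors and 139, 211, 251 and 302 CPM in treated tumors. The groups were well apart, and Oas2 rose by 1.69 on the log2 scale (SE 0.34, adjusted p = 0.0427 by edgeR, higher in 4 of 4 treated tumors). It passed in 11 of 20 alternatives, with adjusted p from 1.94e-05 to 0.134. In this list 2 genes were higher without overlap and 4 were lower, beside 5.97% and 7.10% of all tested genes.

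In the reference list of 20 interferon-stimulated genes, 18 had log2 fold changes above 0, with a median of 0.64. Of the 20, 4 were higher without overlap, beside 5.97% of all tested genes, and 7 had an unadjusted p under 0.05, beside 18.9%. With edgeR and with limma-voom 1 passed, Oasl1, while legacy=FALSE passed 2, Isg15 and Oasl1, and DESeq2 passed 3, Isg15, Rtp4 and Oasl1. Oasl1, an oligoadenylate synthetase-like gene (ENSMUSG00000041827), measured 37.1, 13.9, 35.4 and 24.6 CPM in saline tumors and 72.1, 59.7, 61.4 and 63.1 CPM in treated tumors. Oasl1 rose by 1.21 on the log2 scale (SE 0.25, adjusted p = 0.0458 by edgeR, higher in 4 of 4 treated tumors), and by 0.98 without saline replicate 2. It passed in 11 of 20 alternatives, with adjusted p from 2.97e-04 to 0.153. The summed level of the list was 3965, 1142, 2846 and 1897 TPM in saline tumors and 4151, 3778, 4319 and 4523 TPM in treated tumors, with Bst2 the most abundant gene. The treated tumors were alike, and saline replicate 1 reached their range, as it did for Zbp1.

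The 4 interferon receptor genes had a median log2 fold change of -0.07 and 0 passed edgeR, DESeq2 or limma-voom, with 0 at an unadjusted p under 0.05. Ifnar2 stood at -0.22, Ifnar1 at -0.18 and Ifngr1 at 0.06, where Ifngr1 turned sign without saline replicates 1 or 3 or mAb-DXd/IMQ replicate 1. Without saline replicate 2 they stood at -0.096, -0.081 and 0.20. Without mAb-DXd/IMQ replicate 4 they stood at -0.14, -0.12 and 0.12, and Ifnar1 at -0.27 without saline replicate 1. Among the 4 targets of the conjugate's antibody and payloads, 0 passed edgeR, DESeq2 or limma-voom, 2 had an unadjusted p under 0.05, and the median was -0.20. Tlr8 stood at -0.92 (-0.56 without saline replicate 2, and -1.19 without saline replicate 1, where it passed with adjusted p = 0.0294), Cd276 at 0.35 (0.21 without mAb-DXd/IMQ replicate 3), and Tlr7 at -0.20, which became 0.20 without saline replicate 2 and ran down to -0.48 without saline replicate 1. Over all these pathway lists, 3 of 110 tested genes passed, Il1b, Oas2 and Oasl1, beside 1.06% of all tested genes. Without saline replicate 3, saline replicate 4 or mAb-DXd/IMQ replicate 4 the count was 0. It was 1 without mAb-DXd/IMQ replicate 2, 2 without replicate 1 or 3 of that group, 6 without saline replicate 1 and 4 without saline replicate 2.

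**Figure D5:**
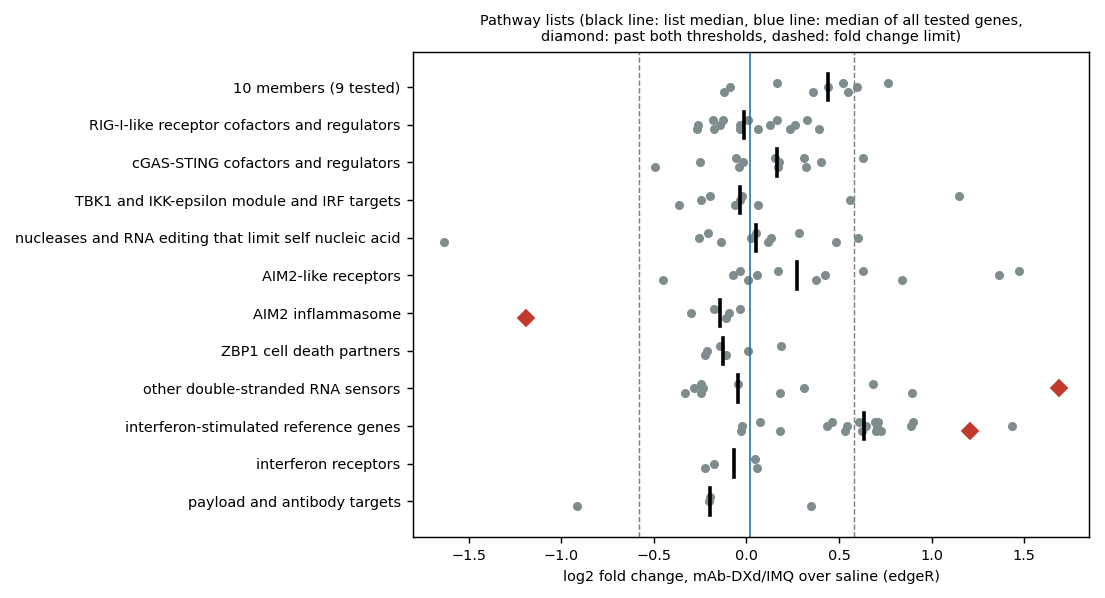
Log2 fold change (edgeR, mAb-DXd/IMQ over saline) of each tested gene of the sensor group and of the pathway lists, with list medians as black lines and the median of all tested genes as a blue line. Only Il1b, Oas2 and Oasl1 passed both thresholds (diamonds), and the interferon-stimulated genes and the sensors have the highest medians.

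Cell type markers give the setting. The 6 epithelial tumor markers, with Krt18 the most abundant, summed to 3473, 2638, 3322 and 3015 TPM in saline tumors and 4083, 3555, 3219 and 2784 TPM in treated tumors. Keratin markers of the labelled mammary carcinoma were thus present in every tumor, and 0 of the 6 passed edgeR or DESeq2, with 1 at an unadjusted p under 0.05. All 6 had log2 fold changes above 0, with a median of 0.23. Esr1, Pgr and Erbb2 together summed to 60.0 ± 11.5 TPM in saline and 57.6 ± 7.02 TPM in treated tumors, nearly all of it Erbb2. No gene of any marker list was at 0 in every tumor.

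The 9 macrophage and monocyte markers summed to 2168, 11295, 5007 and 6202 TPM in saline tumors and 6089, 4930, 6963 and 4647 TPM in treated tumors. Of these 9, 8 had log2 fold changes below 0 and 1 above, with a median of -0.24. With edgeR 0 passed, 3 had an unadjusted p under 0.05, and 1, Mrc1, passed as lower with DESeq2 and with legacy=FALSE. Their order among saline tumors was the reverse of that of Ddx58, Ifih1, Dhx58 and Zbp1 at its ends, highest in replicate 2 and lowest in replicate 1. Their part in the sensors' values was not tested. The 8 T cell markers, led by Cd8a, summed to 89.0, 128, 119 and 111 TPM in saline tumors and 65.7, 62.2, 41.7 and 50.8 TPM in treated tumors. Of these, 2 passed, Cd4 and Cd8a, both lower in treated tumors, each in 15 of 20 alternatives. All 8 had log2 fold changes below 0, 7 had an unadjusted p under 0.05 (18.9% of all tested genes) and 5 were lower without overlap (7.10%). DESeq2 passed 6 as lower, and legacy=FALSE and limma-voom 3 each. The 6 neutrophil markers, led by S100a9, summed to 942, 245, 313 and 434 TPM in saline tumors and 83.2, 138, 164 and 213 TPM in treated tumors, and 1 of them, Csf3r, passed as lower, as it did in 8 of 20 alternatives. DESeq2 passed 3 of the 5 tested neutrophil markers as lower and legacy=FALSE 2, and 3 were lower without overlap. The T cell and neutrophil sums were lower in every treated tumor, as was Il1b, and their part in the results for Il1b and the sensors was not tested.

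In the other marker lists 0 genes passed edgeR or limma-voom. At an unadjusted p under 0.05 were 5 dendritic cell, 3 B and plasma cell, 2 NK cell, 1 endothelial, 1 fibroblast and 1 hormone receptor gene. DESeq2 passed 2 NK cell markers and 1 endothelial marker as higher and 2 B and plasma cell markers as lower. The 5 NK cell markers, led by Prf1, summed to 63.3 ± 4.11 TPM in saline and 80.3 ± 14.1 TPM in treated tumors. The pan-leukocyte marker Ptprc stood at 24.1 ± 3.10 and 21.7 ± 7.63 TPM, and the sum of 5 endothelial markers ran from 39.7 to 99.8 TPM in saline and from 77.6 to 105 TPM in treated tumors. All 5 endothelial markers had log2 fold changes above 0, with a median of 0.56. The 8 dendritic cell markers summed to 1235 ± 657 and 2190 ± 215 TPM, most of it Bst2, which is also an interferon-stimulated gene. The other 7 dendritic cell markers had log2 fold changes below 0, with 4 of them and Bst2 at an unadjusted p under 0.05, and the median of the 8 was -0.88. B and plasma cell markers summed to 4.55, 13.2, 4.39 and 51.8 TPM in saline tumors, where replicate 4 carried most of the mean, and to 2.63, 2.85, 3.8 and 1.74 TPM in treated tumors. Fibroblast markers summed to 1519 ± 591 and 1514 ± 733 TPM. Skeletal muscle markers summed to 616, 57.3, 465 and 263 TPM in saline tumors and 417, 113, 292 and 340 TPM in treated tumors. Keratinocyte markers summed to 52.1, 8.19, 19.6 and 10.4 TPM and to 8.07, 222, 10.6 and 13.1 TPM. Saline replicate 2, low in 4 sensors, was also the lowest for muscle markers. The source of the muscle and keratinocyte RNA, and its part in the sensors' values, was not tested. SD values here are over 4 tumors.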

How the data were processed

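Bulk RNA was sequenced from 8 tumors, 4 per group. The authors deposited raw counts per gene and tumor, without normalization. The deposited table also gives a gene length in bases, an other kind of value, used here for TPM and for the trend and correction by gene length. The submitters' processing notes name HISAT2, and also HISAT and TopHat2, as aligners and mm39 as the build, but coordinates matched GRCm38: 98.8% of genes had the same start as in GENCODE vM21, and 98% had a length equal to its exon union. The counting program, strandedness and any removal of duplicates are not given in the sources used here.

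The tools were edgeR 4.0.16, DESeq2 1.42.0 and limma 3.58.1 under R 4.3.3, with matplotlib 3.10.9 under Python 3.11.15. Genes were kept by filterByExpr (minimum count 10, minimum total 15), which left 18511, and scaled by TMM. The groups were compared over the whole table by edgeR's quasi-likelihood F-test (legacy=TRUE) without covariates. To pass, a gene needed both a Benjamini-Hochberg FDR below 0.05 over all tested genes and a log2 fold change beyond 0.58 in size. Standard errors are approximate, from the fold change and its F statistic. CPM are TMM-normalized, and log2 CPM for correlations used a prior count of 2. The fit was tested on simulated data.

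The members and lists were chosen with earlier results of these data known. Named genes were the 10 members, and from each pathway list every gene past the thresholds or otherwise the 3 with the largest absolute log2 fold change at a mean of at least 1 CPM. For Ddx58, Mb21d1 and Zbp1 the 3 genes with the highest Pearson r were added. Marker lists are given as sums and counts. Alternatives were RLE, upper-quartile or no factors, a CPM filter (above 1 in at least 4 tumors), no filter, legacy=FALSE, DESeq2, limma-voom, FDR alone, a replicate block, a gene length correction (spline, 5 degrees of freedom), both together, and each tumor left out. The count of sensors without overlap under other scalings, and total counts and coefficients of variation with tumors left out, were added after the data were seen.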

Additional observations from a re-analysis of the deposited data

Results flagged for a closer look

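In each group of 4 tumors, the gap between the highest or lowest tumor and its nearest neighbor was divided by the group's range and compared with Dixon's 95% critical value. Of 152 groups checked, 11 were above it, and chance gives about 1 in 20 groups, or 7.6 here. Among the sensors this was 1 gene, with a small distance. Ifih1 measured 75.2 CPM in mAb-DXd/IMQ replicate 4, against 81.5 to 82.5 CPM in the other 3 (gap over range 0.857).

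Among the pathway genes, 4 had such a tumor. Ikbkg measured 37.5 CPM in mAb-DXd/IMQ replicate 3, against 50.5 to 51.5 CPM in the other 3 (gap over range 0.932). Dnase1l3 measured 10.5 CPM in mAb-DXd/IMQ replicate 3, against 2.99 to 4.26 CPM in the other 3 (gap over range 0.832). Ifi208 measured 1.08 CPM in saline replicate 2, against 2.98 to 3.30 CPM in the other 3 (gap over range 0.857). Dnase1l3 was high and Ikbkg low in the same tumor. The interferon receptor gene Ifngr1 measured 120 CPM in mAb-DXd/IMQ replicate 1, against 83.0 to 86.7 CPM in the other 3 (gap over range 0.901).

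Of the other named genes and list sums, 6 met this limit. Csf3r measured 15 CPM in mAb-DXd/IMQ replicate 1, against 21.8 to 22.9 CPM in the other 3 (gap over range 0.870). Lrrc75a measured 6.88 CPM in mAb-DXd/IMQ replicate 3, against 4.73 to 5.07 CPM in the other 3 (gap over range 0.841). Parp12 measured 216 CPM in mAb-DXd/IMQ replicate 3, against 186 to 191 CPM in the other 3 (gap over range 0.854). Lrrc75a and Parp12 were high in the tumor that was also highest in Ddx58 and Mb21d1. Lrrc75a was named for its likeness to Mb21d1, so its match with that gene follows from the choice. Parp12 was named for its likeness to Zbp1. The pan-leukocyte marker measured 33.1 TPM in mAb-DXd/IMQ replicate 3, against 17.0 to 18.8 TPM in the other 3 (gap over range 0.891). The sum of keratinocyte markers measured 222 TPM in mAb-DXd/IMQ replicate 2, against 8.07 to 13.1 TPM in the other 3 (gap over range 0.976). The sum of payload and antibody targets measured 189 TPM in mAb-DXd/IMQ replicate 3, against 117 to 122 TPM in the other 3 (gap over range 0.929). No explanation of these values was tested. Of the 11, 6 were in mAb-DXd/IMQ replicate 3.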

How the results depend on the processing

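Over 20 alternatives each, 180 values of the 9 tested sensors kept their sign, and 175 kept their side of the thresholds. The other 5 passed: Aim2 in 4 (no filter, legacy=FALSE, DESeq2, and without mAb-DXd/IMQ replicate 1) and Ddx58 in 1 (DESeq2). Over the alternatives with a single tumor left out, the number of sensors past the thresholds was 0 to 1. It was 1 with no filter, 1 with legacy=FALSE and 2 with DESeq2. Sensors whose groups did not overlap numbered 5, but 0 as TPM. The cause was not tested.

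The 197 genes past the thresholds became 358 with no filter, 787 with DESeq2 and 120 with the gene length correction, and 10 to 203 with a tumor left out. The pathway count of 3 became 8 with no filter, 5 with legacy=FALSE, 10 with DESeq2 and 1 with the length correction, and 0 to 6 with a tumor left out. With a replicate block, which treats same-numbered tumors as paired, 14 genes passed, 10 higher and 4 lower, and 0 pathway genes. With that paired block and the length correction together, 12 genes and 0 pathway genes passed. Deviations of same-numbered tumors from their group means had r of -0.17, -0.055, 0.079 and -0.067 across genes. For tumors with different numbers r ran from -0.10 to 0.18. With 4 tumors a group, these values cannot decide whether the numbers pair tumors, and what the numbers stand for is not given. The fits with a tumor left out hold fewer samples, and those with the block have fewer degrees of freedom. The cause of the changed counts was not tested.

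Of 780 values of other named genes, 713 kept direction and side of the thresholds, 45 no longer passed, 18 newly passed and 4 changed sign. The sign changes were in genes that never passed: Ifngr1, from -0.087 to 0.20 with a tumor left out, and Tlr7, from -0.48 to 0.20. The difference in total counts kept its sign with each tumor left out and was smallest, -6424226, without saline replicate 4. Depth limits Trex2 and Ifnb1, and floors cover counting error only. With 4 tumors a group, the 95% intervals of Mavs, Tmem173, Zbp1 and Tbk1 span 0, which does not show that they were equal.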
